A study of Mus musculus with 24 samples.

Results

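CpG-poor promoter tiles are 100 bp windows close to the start of a protein-coding gene that hold only 1 to 3 CpG sites. They were chosen from the mm10 sequence and RefSeq annotation without use of any methylation value. A tile was taken when it was present in the tables of all 3 tissues, had fewer than 50 soft-masked (repeat) bases, overlapped the stretch from 1000 bp upstream to 500 bp downstream of a curated RefSeq start, and had no tile of 7 or more CpGs within 500 bp. 7513 of the 758685 shared tiles met these rules, at 4029 genes, which is 8.51% of the 88293 shared tiles near a start. By CpG number, 2143 held 1, 2891 held 2 and 2479 held 3. The study profiled C57Bl/6J mice of 24 weeks by reduced representation bisulphite sequencing (RRBS), which reads methylation mostly next to CCGG sites. There were 12 liver libraries (6 male, 6 female), 6 brain libraries and 6 heart libraries (3 male, 3 female each), with no treatment. DNA came from a section of the front of the brain, the apex of the heart and the left lobe of the liver, each a mixture of cell types. Columns could be tied to a tissue but not to a mouse or gender, so genders were pooled. The mouse numbers of the brain and heart libraries recur among the liver libraries, and 2 of those numbers carry a different gender in liver, so the libraries were compared as unpaired. The level given for a tissue is the mean of its libraries, in percent methylation, and ± is the SD over its libraries (n = 12 in liver and 6 in brain and in heart). Where a tissue differed, a different mixture of cells and a different level within one cell type cannot be told apart.

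DNA methylation in mammals sits mainly on the cytosine of CpG dinucleotides. Most promoters of housekeeping and developmental genes lie in CpG islands, which stay unmethylated in nearly every cell whether or not the gene is active. CpG-poor promoters lack this protection, are often methylated where the gene is silent, and commonly belong to genes of a specialised cell such as secreted liver proteins, muscle proteins or receptors. A tile of 1 to 3 CpGs therefore reports on few sites, and each read contributes few calls.

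The sequences below are the leading tiles in each direction for each tissue (lower or higher than both other tissues), leaving out tiles that touch an untranslated region and tiles of 1 chromosome. They show how little CpG sequence carries the differences described further on. All are the plus strand of mm10, read 5′ to 3′, with each CpG in capitals.
Gsr (chr8:33652501-33652600): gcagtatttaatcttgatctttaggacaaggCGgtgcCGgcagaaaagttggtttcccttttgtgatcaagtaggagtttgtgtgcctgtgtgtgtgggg
Stat2 (chr10:128269401-128269500): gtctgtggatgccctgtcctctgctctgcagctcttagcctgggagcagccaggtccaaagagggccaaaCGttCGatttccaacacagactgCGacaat
Hopx (chr5:77115501-77115600): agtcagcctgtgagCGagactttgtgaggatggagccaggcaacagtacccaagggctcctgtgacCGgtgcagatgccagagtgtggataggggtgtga
Csrp3 (chr7:48848201-48848300): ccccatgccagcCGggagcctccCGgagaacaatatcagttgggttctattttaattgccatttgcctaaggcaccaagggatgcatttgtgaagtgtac
Elmo1 (chr13:20472101-20472200): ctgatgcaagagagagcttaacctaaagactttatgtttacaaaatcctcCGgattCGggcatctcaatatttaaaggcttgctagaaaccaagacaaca
Gpm6a (chr8:54954401-54954500): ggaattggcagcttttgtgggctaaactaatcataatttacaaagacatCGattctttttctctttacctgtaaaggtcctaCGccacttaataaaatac
Cela3b (chr4:137430701-137430800): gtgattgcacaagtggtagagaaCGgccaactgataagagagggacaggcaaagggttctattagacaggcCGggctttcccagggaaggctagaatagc
Tdrd7 (chr4:45965501-45965600): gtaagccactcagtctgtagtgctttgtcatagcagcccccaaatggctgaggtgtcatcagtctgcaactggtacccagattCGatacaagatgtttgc
Smim14 (chr5:65480601-65480700): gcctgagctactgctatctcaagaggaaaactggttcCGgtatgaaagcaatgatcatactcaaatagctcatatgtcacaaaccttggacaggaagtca
Aqp7 (chr4:41048801-41048900): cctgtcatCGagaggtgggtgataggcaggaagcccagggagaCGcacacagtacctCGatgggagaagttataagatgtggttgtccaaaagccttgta
Ncald (chr15:37458101-37458200): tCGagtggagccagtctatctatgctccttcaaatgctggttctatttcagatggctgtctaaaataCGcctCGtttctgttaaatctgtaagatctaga
Arpp21 (chr9:112188501-112188600): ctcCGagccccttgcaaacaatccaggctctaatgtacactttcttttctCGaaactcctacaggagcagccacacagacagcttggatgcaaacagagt
The first pair was low in liver and the second pair (Hopx, Csrp3) was high in liver. Elmo1 and Gpm6a were low in brain, Cela3b and Tdrd7 were high in brain, Smim14 and Aqp7 were low in heart, and Ncald and Arpp21 were high in heart. The tile named for Stat2 is centred 1048 bp upstream of the Stat2 start and inside Apof, the gene of the secreted apolipoprotein F. Gene names throughout are those of the nearest curated start, and 15 of the 88 tiles chosen by the naming rule lie in the body of another RefSeq gene. In the body of their own gene lie 55 of the 88. Distances are from the nearest curated start, so a tile given as upstream of its start can lie inside its gene. This was so at Elmo1, Gpm6a, Cntn1, Smim14, Zfp46, Arpp21 and Dlg4. 60.1% of the CpG-poor promoter tiles held a CCGG within the tile, and their median levels were close to those without it (56.6 against 57.3% in liver, 58.7 against 60.8% in brain, 46.5 against 47.3% in heart).

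Of the 24 libraries, 1 brain library (brain library 1, by its column) had the lowest medians of its tissue. At 8 tiles chosen by the naming rule it also stood apart from the other brain libraries by the test for single libraries given further on. Its median was 55.1% over CpG-poor promoter tiles, against 58.1 to 62% in the other 5, and 76.9% over all tiles, against 79.5 to 81.5%. Tiles of at least 75% made up 31.8% of it, against 34.6 to 37.7%. Results that rest on brain are given with it and, where they move, also without it.

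CpG-poor promoter tiles spanned the whole range of methylation. The median stood at 57% in liver, 59.5% in brain and 46.8% in heart, with library medians of 55.4 to 58.9%, 55.1 to 62% and 45.9 to 47.6%. The heart libraries lay below all libraries of the other tissues, while the liver and brain libraries overlapped. Tiles of at most 25% made up 32.1% in liver, 27.5% in brain and 33.6% in heart, and tiles of at least 75% made up 34.4% in liver, 34.2% in brain and 26.3% in heart. The median SD of a tile over the libraries of a tissue was 5.26 points in liver, 5.54 in brain and 4.71 in heart.

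**Figure D1:**
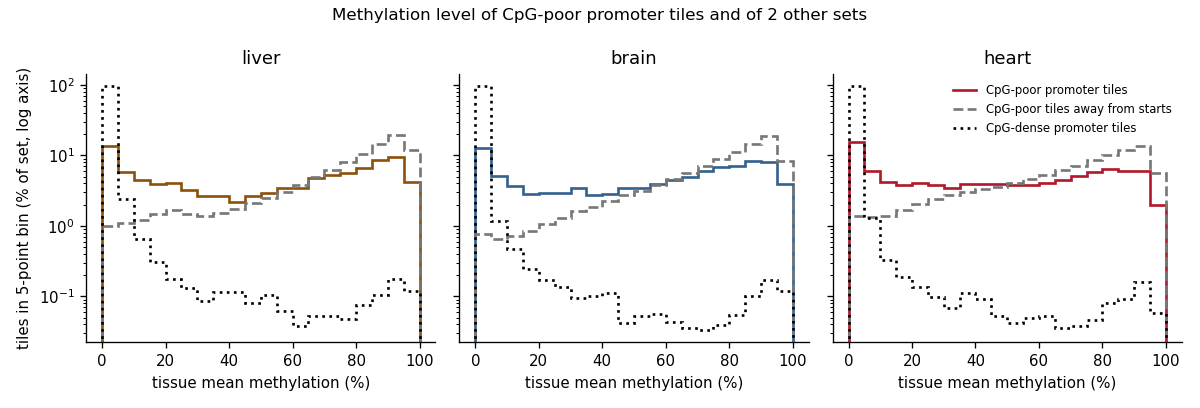
Share of tiles (vertical, log axis, percent of each set) in bins of 5 points of the tissue mean methylation (horizontal, percent), for CpG-poor promoter tiles (coloured line), CpG-poor tiles away from starts (dashed) and CpG-dense promoter tiles (dotted). All the sets fill every bin, in different shares. The lowest bin in liver holds 13.7% of the CpG-poor promoter tiles, 95.1% of the CpG-dense promoter tiles and 0.988% of the CpG-poor tiles away from starts.

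Levels differed with the CpG number and with whether a CpG-dense tile lay near. The 48018 promoter tiles of 7 or more CpGs had medians of 1.06% in liver, 0.717% in brain and 0.867% in heart. The 9577 promoter tiles of 1 to 3 CpGs that did have a CpG-dense tile within 500 bp were nearly as low, at 3.22% in liver, 2.68% in brain and 2.58% in heart. Tiles of 1 to 3 CpGs away from starts and from dense tiles (372614) were high, at 83.3% in liver, 81.5% in brain and 74.8% in heart. The medians over all tiles were 80.8% in liver, 79.5% in brain and 71.9% in heart. In each of the 24 libraries the median of the CpG-poor promoter tiles was below that of all tiles, by a mean of 23.9 points in liver, 20.5 in brain and 24.8 in heart.

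The library medians were compared with two-sided exact permutation tests over libraries, 12 tests in all with Benjamini-Hochberg adjustment. The mean of the library medians was 56.7 ± 0.911% in liver (SD, n = 12), 59.1 ± 2.48% in brain (n = 6) and 46.8 ± 0.599% in heart (n = 6). Liver exceeded heart by 9.84 points (exact permutation p = 0.000108, adjusted 0.000323) and brain exceeded heart by 12.2 points (exact permutation p = 0.00216, adjusted 0.00289), each p being the smallest these group sizes allow. Liver was below brain by 2.41 points (exact permutation p = 0.0137, adjusted 0.0149), a difference close to the SD of the brain libraries. The direction of this difference turned when starts of predicted transcripts were added, an alternative chosen after the data were seen, with medians of 66.1% in liver and 65.5% in brain. All these are differences between medians over the whole set, and differences within a tile were smaller. Over CpG-poor promoter tiles the median difference of tissue means was 3.675 points for liver minus heart and 4.13 for brain minus heart. For liver minus brain it was 0.2 points, opposite in sign to the difference of the library medians. Heart also had the lowest median over all tiles, and relative to that median the gaps between tissues were of other sizes. The distance below all tiles was smaller in brain than in liver by 3.38 points (exact permutation p = 0.000108, adjusted 0.000323) and smaller in brain than in heart by 4.27 points (p = 0.00216 by the same exact test, adjusted 0.00289), whereas liver and heart differed by 0.892 points (exact permutation p = 0.00388, adjusted 0.00465) with overlapping libraries. The share of CpG-poor promoter tiles at most 25% methylated averaged 32.3 ± 0.593% of tiles per liver library, 28.5 ± 0.729% per brain library and 33.9 ± 0.451% per heart library. The brain libraries held the fewest low tiles without overlap (exact permutation p = 0.000108 against liver and 0.00216 against heart, adjusted 0.000323 and 0.00289). Shares of tiles at least 75% methylated were 34.8 ± 0.581% in liver and 35 ± 1.97% in brain, with no difference detected (exact permutation p = 0.784), against 26.6 ± 0.458% in heart. Heart was lower than liver in that share by 8.27 points (exact permutation p = 0.000108, adjusted 0.000323).

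Without brain library 1 the mean of the brain medians was 59.9 ± 1.71% (n = 5). Liver was then below brain by 3.21 points (exact permutation p = 0.00097), still with overlapping libraries, and brain exceeded heart by 13 points (exact permutation p = 0.00433). The distance below all tiles was smaller in brain than in liver by 3.63 points (p = 0.000323 in the exact permutation test) and smaller than in heart by 4.53 points (p = 0.00433 likewise, exact). The share of tiles at most 25% methylated averaged 28.3% per brain library, and that of tiles at least 75% methylated was 0.802 points higher in brain than in liver (exact permutation p = 0.13). These tests without the library were chosen after the data were seen and carry no adjustment.

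Levels dipped at the start itself. In the 250 bp upstream of the start the 1135 tiles had medians of 39.3, 46.7 and 32.4% in liver, brain and heart, compared with 66.6, 66.7 and 56.6% in the 1699 tiles of the bin farthest upstream. Downstream the medians were 51.4, 57.6 and 43.1% within 250 bp and 61.2, 62.5 and 51.2% beyond. The drop from far upstream to the start was present in each tissue, and near the start the brain median lay above the liver median while the heart median stayed lowest. Tiles with 3 CpGs were lower than tiles with 1 CpG, at 43.8 against 63% in liver, 48.5 against 65% in brain and 36.6 against 51.2% in heart. By annotation of the gene's own transcript, 4389 tiles were upstream, 1069 touched a 5′ UTR, 1039 a coding exon, 2 a 3′ UTR, and 1014 lay in an intron. Tiles on the 5′ UTR were the lowest of the sizeable groups (36.4, 41.1 and 28.8% in liver, brain and heart) and tiles on a coding exon the highest (73.5, 76.2 and 64.9%). These differences between groups of tiles are descriptions, since tiles of 1 gene are not independent.

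**Figure D2:**
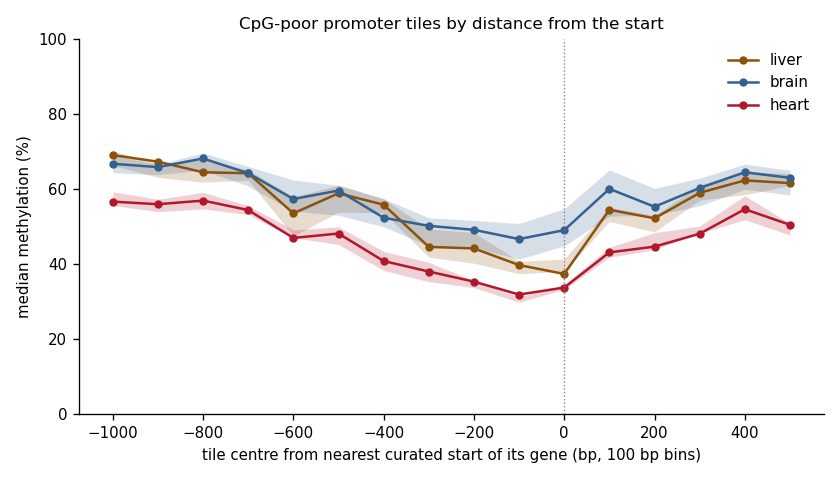
Median methylation of CpG-poor promoter tiles (vertical, percent) in 100 bp bins of the distance from the tile centre to the nearest curated start of its gene (horizontal, bp, negative upstream), with points for the median of the tissue means and bands for the lowest and highest library medians. All 3 tissues are lowest around the start, and the heart line lies below the others throughout.

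The 3 tissue means lay within 10 points of each other at 2910 CpG-poor promoter tiles (38.7%). 1680 tiles (22.4%) were at most 25% methylated in every tissue, 1464 (19.5%) were at least 75% methylated in every tissue, and 1278 (17%) lay between these limits in every tissue. Tiles that were low in every tissue more often had an mm10 window of 7 or more CpGs within 500 bp that was not itself among the tiles measured, at 34.2% against 6.01% of the tiles high in every tissue. Their mean CpG number was 2.28 against 2.01, so the sets also differed in the CpG number. The lowest tiles included Zfp934, a zinc finger gene, which read 0% in all 24 libraries at chr13:62558501-62558600. Nrp1, the receptor neuropilin 1, read 0 to 5.3% in liver (median 0%), 0% in every brain library and 0% in every heart library. The tile of Zfp790 read 0 to 5.4% in liver (median 0%), 0% in every brain library and 0% in every heart library. Each of these sat at the floor of the assay in nearly every library. Stxbp5, which encodes tomosyn, had tissue means of 0.467, 0.117 and 0.7% in liver, brain and heart, Depdc1a 0.708, 0.45 and 0%, and the tile shared by Rras, a small GTPase, and Scaf1 0.642, 0.717 and 0.433%.

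Differences between tissues were tested for every tile with limma across all 758685 tiles, and a tile was called when the adjusted p was at most 0.01 and the tissue means differed by at least 25 points. 2175 (28.9%) of the CpG-poor promoter tiles were called in at least 1 comparison, against 18.9% of all tiles. Liver was higher than brain at 527 (7.01%) of them (background 5.04% of all tiles) and lower at 744 (9.9%) (background 4.76%). Liver was higher than heart at 875 (11.6%) (background 7.94%) and lower at 492 (6.55%) (background 2.87%). Brain was higher than heart at 790 (10.5%) (background 7.71%) and lower at 182 (2.42%) (background 1.75%). The share was above the background in each direction, and the ratio to it was largest where liver was the lower tissue. Heart was the lower tissue of most called tiles in each of its comparisons, for these tiles and for all tiles alike.

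A tile was put in a tissue class when that tissue was called lower, or higher, than each of the others. A tile called in all 3 comparisons is low in 1 tissue and high in another and was counted in both classes, which was so for 65 tiles. 430 (5.72%) tiles were low in liver (background 2.46% of all tiles) and 253 (3.37%) high in liver (background 2.06%). 139 (1.85%) were low in brain (background 1.43%) and 225 (2.99%) high in brain (background 1.45%). 366 (4.87%) were low in heart (background 3.66%) and 22 (0.293%) high in heart (background 0.163%). The tiles low in liver were at 295 genes, those low in heart at 277 and those high in heart at 18. Without brain library 1 the counts were 423 low in liver, 247 high in liver, 142 low in brain, 261 high in brain, 381 low in heart and 24 high in heart. Of the genes with a tile low in heart, 29.2% also had a curated start with a CpG-dense tile within 500 bp, and of those with a tile low in brain 53%. The share was 41% for genes with a tile low in liver, 53.2% for high in liver, 34.8% for high in brain and 50% for high in heart. All 4029 genes with a CpG-poor promoter tile gave 42.3%.

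**Figure D3:**
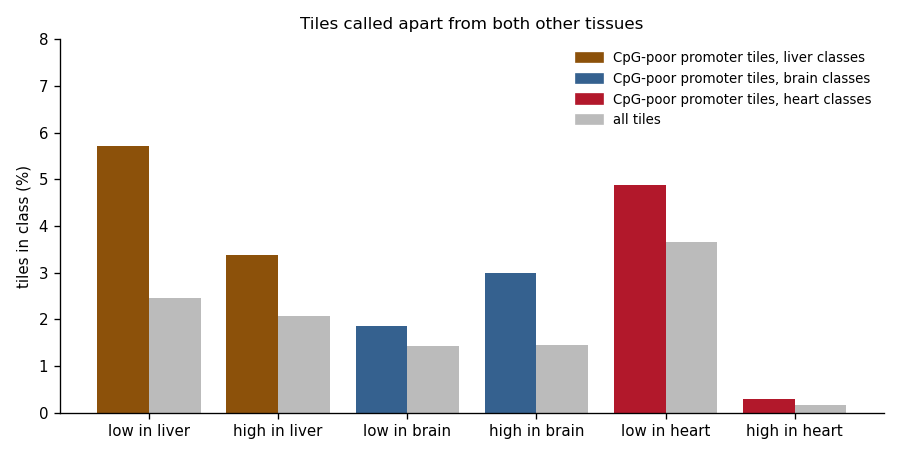
Percent of tiles (vertical) called apart from both other tissues, by class (horizontal), for CpG-poor promoter tiles (coloured bars, left) and all tiles (grey bars, right). The coloured bar is the taller of each pair, with 5.72 against 2.46% for tiles low in liver and 0.293 against 0.163% for tiles high in heart.

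The tissue labels were read against marker genes, using every shared tile near their starts. Of 14 liver markers, 6 had a tile and 6 of them were lowest in liver, with a median of 23.6% against 86% in brain and 75.2% in heart. 7 of the 11 brain markers with a tile were lowest in brain (medians 9.79% in brain, 23.1% in liver, and between these in heart). Among the 7, Snap25 and Syt1 were near the floor in every tissue (1.45 and 1.33% in brain, 2.06 and 2.03% in heart). The brain markers Mbp, Slc1a2, Neurod2 and Tbr1 were lowest in heart. 3 of the 6 heart markers with a tile were lowest in heart (medians 50.4% in heart, 73.8% in liver and 75% in brain). Against their label, Mb, which encodes myoglobin, averaged 86.7% in heart and 76.2% in liver, and Myh7, a slow myosin heavy chain, averaged 26.3% in brain and 41.1% in heart. The heart marker Ryr2 was also not lowest in heart, with 16% in heart, 14.9% in brain and 13.5% in liver.

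At the 7 genes that led the tiles low in liver, brain and heart were near full methylation. At Gsr, glutathione reductase, 688 bp upstream of its start, the libraries read 7.6 to 20% in liver (median 14.6%), 88.6 to 100% in brain (median 95.2%) and 87.1 to 95.7% in heart (median 92.4%). Liver was lower than brain by 79.8 points (SE 2.55, adjusted p = 3.7e-18) and lower than heart by 77.1 points (SE 2.55, adjusted p = 1.7e-17), with no overlap between liver and the others. The Stat2 tile inside Apof read 17.2 to 24% in liver (median 20.6%), 95.5 to 97.3% in brain (median 95.9%) and 92.5 to 97.7% in heart (median 94.2%). Stat2 itself is a transcription factor of interferon signalling, whereas apolipoprotein F is a plasma protein made by the liver. Smlr1, in the coding part of exon 1, 322 bp past its start (chr10:25535901-25536000), read 9.1 to 31.5% in liver (median 21.1%), 88.1 to 97.5% in brain (median 95.2%) and 84.5 to 96.8% in heart (median 92.7%). Gltpd2, in the coding part of exon 1, 142 bp past its start (chr11:70519301-70519400), read 10.5 to 32.1% in liver (median 22.4%), 91 to 95.8% in brain (median 94.9%) and 95.6 to 99% in heart (median 98.5%). In each of these 4 tiles brain and heart were near full methylation and overlapped. The tile named for Tk1, thymidine kinase, lies inside Afmid, the formamidase of tryptophan breakdown, and had means of 18.2 ± 6.01% in liver, 90.1 ± 5.23% in brain and 91.7 ± 1.53% in heart. Tkfc, the triokinase of fructose metabolism, had 20.4 ± 5.87% in liver, 91.4 ± 2.48% in brain and 90.9 ± 3.18% in heart. Leap2, a liver-expressed peptide that acts on the ghrelin receptor, had 23.1 ± 9.6% in liver, 92.8 ± 4.07% in brain and 92.6 ± 4.03% in heart. The largest adjusted p among the 14 liver differences of these 7 genes was 7.65e-14.

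At the 7 genes that led the tiles high in liver, brain and heart were not called apart. Slc25a25, a mitochondrial ATP-Mg carrier, in the 5′ UTR, 200 bp past its start (chr2:32430901-32431000), read 66.1 to 86% in liver (median 75.8%), 1.2 to 6.4% in brain (median 3.15%) and 4.9 to 9.2% in heart (median 7.6%), and liver was higher by 72 points (SE 2.26, adjusted p = 3.01e-18) than brain and by 68.1 points (SE 2.26, adjusted p = 1.72e-17) than heart. Zfp46, a zinc finger gene, 226 bp upstream of its start (chr4:136284401-136284500), read 50 to 83.3% in liver (median 64%), 0 to 8.9% in brain (median 4.7%) and 0 to 11.4% in heart (median 3.1%). Atp9a, a P-type ATPase of the flippase family, in the 5′ UTR, 6 bp past its start (chr2:168712901-168713000), read 76 to 92.4% in liver (median 86.7%), 21 to 35% in brain (median 27%) and 22.4 to 38.1% in heart (median 31.6%). In these tiles the liver libraries lay above every brain and heart library. Klhl3, the substrate adaptor of a ubiquitin ligase, had means of 57.4 ± 8.91% in liver, 2.55 ± 1.84% in brain and 1.48 ± 1.09% in heart. Psd3, an exchange factor for Arf GTPases, had 77.8 ± 8.39% in liver, 7.12 ± 4.66% in brain and 24.7 ± 7% in heart. Hopx, a regulator of heart development, had 75.2 ± 7.71% in liver, 22.2 ± 8.79% in brain and 18.6 ± 4.26% in heart. Csrp3, the muscle LIM protein, had 81 ± 4.95% in liver, 29 ± 9.51% in brain and 27.2 ± 6.57% in heart. At Csrp3 the brain and heart libraries overlapped, and their difference of 1.83 points (SE 4.07, adjusted p = 0.766) was not called. The largest adjusted p among the liver differences of the 7 genes was 5.83e-12.

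Tiles low in brain were led by 7 genes, of which Gpm6a, Map2, Rufy3 and Cntn1 are known for neuronal functions. Elmo1, an activator of Rac with the Dock proteins, 840 bp upstream of its start, read 83.8 to 94% in liver (median 90.4%), 13.1 to 25% in brain (median 20.9%) and 80.6 to 90.4% in heart (median 86.8%), and brain was lower by 69.4 points (SE 2.25, adjusted p = 4.22e-18) than liver and by 66.2 points (SE 2.59, adjusted p = 1.62e-15) than heart. Gpm6a, a neuronal membrane glycoprotein, 278 bp upstream of its start, read 88.1 to 97.2% in liver (median 94.6%), 23 to 37.2% in brain (median 28.2%) and 89.2 to 100% in heart (median 92.1%). Map2, the microtubule protein of dendrites, in the 5′ UTR, 326 bp past its start (chr1:66322001-66322100), read 77.3 to 100% in liver (median 88%), 9.5 to 17.5% in brain (median 13.2%) and 68.9 to 80.4% in heart (median 72.8%). Brain did not overlap with the other tissues at these genes, and heart was below liver at Map2 by 15.1 points (SE 2.91, adjusted p = 0.000109), short of a call. Minar2 had means of 85.3 ± 3.07% in liver, 12.9 ± 3% in brain and 84.1 ± 3.82% in heart. Apc2, the neural relative of Apc, had 94.5 ± 2.95% in liver, 21.9 ± 6.92% in brain and 83.7 ± 8.17% in heart, and Rufy3, which acts in neuronal polarity, 89.4 ± 3.44% in liver, 16.8 ± 6.45% in brain and 78.4 ± 2.81% in heart. Cntn1, the neuronal adhesion protein contactin 1, 506 bp upstream of its start (chr15:92160801-92160900), read 85 to 100% in liver (median 93.6%), 15.2 to 57.9% in brain (median 27.4%) and 85.7 to 96.6% in heart (median 90.1%). One brain library stood at 57.9%, and the groups still did not overlap. Its 4 CpG-poor tiles were all low in brain, with brain means of 15.6 to 34.8% against 63.3 to 93% in liver. The largest adjusted p among the brain differences of the 7 genes was 2.1e-10.

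Among tiles high in brain, the 7 leading genes had liver and heart levels that were not called apart. Cela3b, a pancreatic elastase, 230 bp upstream of its start, read 0 to 18.9% in liver (median 7.25%), 88.9 to 95.7% in brain (median 92.5%) and 15.1 to 40.7% in heart (median 22.1%), and brain was higher by 84.8 points (SE 2.99, adjusted p = 1.38e-17) than liver and by 69.2 points (SE 3.45, adjusted p = 8.18e-14) than heart. Fxyd1, phospholemman, a regulator of the sodium pump in heart and muscle, in the coding part of exon 2, 502 bp past its start (chr7:31054301-31054400), read 0 to 21.1% in liver (median 12%), 61.3 to 77.6% in brain (median 72%) and 9.5 to 25.9% in heart (median 16.4%). Hjv, hemojuvelin, a co-receptor of iron regulation in liver and muscle, in the 5′ UTR, 166 bp past its start (chr3:96525301-96525400), read 6 to 45.6% in liver (median 14.1%), 62 to 88.4% in brain (median 82.5%) and 17.1 to 36% in heart (median 28.4%). At these genes every brain library was above every other library. Tnfaip8 had means of 11.7 ± 5.49% in liver, 76.1 ± 3.74% in brain and 10.3 ± 4.34% in heart. Lmo2, a cofactor of blood and endothelial development, had 34.7 ± 11.9% in liver, 85.3 ± 11% in brain and 33.8 ± 6% in heart, Tdrd7, a Tudor-domain protein of RNA granules, 14.6 ± 5.39% in liver, 74.7 ± 11% in brain and 25 ± 10.01% in heart. Crip1, a small LIM protein, had 8.39 ± 2.42% in liver, 61.8 ± 8.97% in brain and 12.3 ± 3.88% in heart. The largest adjusted p among the brain differences of the 7 genes was 9.17e-08.

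Among tiles low in heart, the 7 leading genes were methylated in liver and brain alike. Stox2, in the 5′ UTR, 2 bp upstream of its start (chr8:47352301-47352400), read 71.8 to 100% in liver (median 86.8%), 55.6 to 84.6% in brain (median 70.5%) and 0 to 23% in heart (median 14.5%), and heart was lower by 72.6 points (SE 4.23, adjusted p = 1.89e-13) than liver and by 55.2 points (SE 4.88, adjusted p = 1.46e-09) than brain. Smim14, 774 bp upstream of its start, read 42.9 to 72.6% in liver (median 63.3%), 26.7 to 72.3% in brain (median 59.9%) and 0 to 6.2% in heart (median 1.8%). Espnl, an espin-like actin-bundling protein, in the coding part of exon 1, 76 bp past its start (chr1:91322101-91322200), read 45.6 to 62.5% in liver (median 56.3%), 63.6 to 88% in brain (median 82.4%) and 0 to 8.8% in heart (median 0%), so that 5 of 6 heart libraries were at 0. Heart lay below all other libraries at these genes. Aqp7, a channel for water and glycerol, had means of 86.3 ± 5.41% in liver, 75.3 ± 13.7% in brain and 22.3 ± 5.99% in heart. Emilin1, a protein of elastic fibres, had 75.3 ± 9.29% in liver, 84.8 ± 6.01% in brain and 24.5 ± 5.29% in heart. Pf4, the platelet chemokine, had 57 ± 5.58% in liver, 59.2 ± 5.83% in brain and 6.5 ± 2.71% in heart at its start, and the next tile downstream was also low in heart. Ifi47, an interferon-inducible GTPase, had 64.4 ± 7.75% in liver, 57 ± 5.12% in brain and 6.88 ± 2.75% in heart. Liver and brain were not called apart at any of these 7 tiles, the largest of those differences being 23.1 points (SE 3.67, adjusted p = 9.67e-06) at Espnl. The largest adjusted p among the heart differences was 1e-08.

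The 22 tiles high in heart made the smallest class. Ncald, the calcium sensor neurocalcin delta, in intron 1, 360 bp past its start, read 11.6 to 36.4% in liver (median 24.1%), 26.3 to 34% in brain (median 30.1%) and 68.1 to 90.9% in heart (median 80.7%), and heart was higher by 55 points (SE 3.54, adjusted p = 1.26e-12) than liver and by 49.5 points (SE 4.09, adjusted p = 4.75e-10) than brain. Arpp21, a phosphoprotein of striatal neurons, 204 bp upstream of its start, read 13.4 to 37.7% in liver (median 24.3%), 16.5 to 42.4% in brain (median 33.9%) and 72.1 to 85.7% in heart (median 79.5%). Mgat4c, a glycosyltransferase, in the 5′ UTR, 92 bp past its start (chr10:102158901-102159000), read 5.3 to 25.4% in liver (median 15.2%), 4.9 to 12.8% in brain (median 9.1%) and 43.5 to 65.6% in heart (median 55.5%). Heart did not overlap with the others at these genes. Hes3, a transcriptional repressor of neural progenitors, had means of 38 ± 6.4% in liver, 32.8 ± 17% in brain and 76.6 ± 6.92% in heart. Sft2d3 had 28.3 ± 7.02% in liver, 50.8 ± 9.94% in brain and 83.8 ± 6.5% in heart, and Fmo1, a flavin monooxygenase, 24.4 ± 7.91% in liver, 27.4 ± 8.21% in brain and 58.6 ± 5.22% in heart. Snx29, a sorting nexin, had liver libraries spread from 23.7 to 87.5%. They overlapped with the heart libraries, which read 85.1 to 95.2%, and the liver-heart difference was 34 points (SE 8.5, adjusted p = 0.0017).

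**Figure D4:**
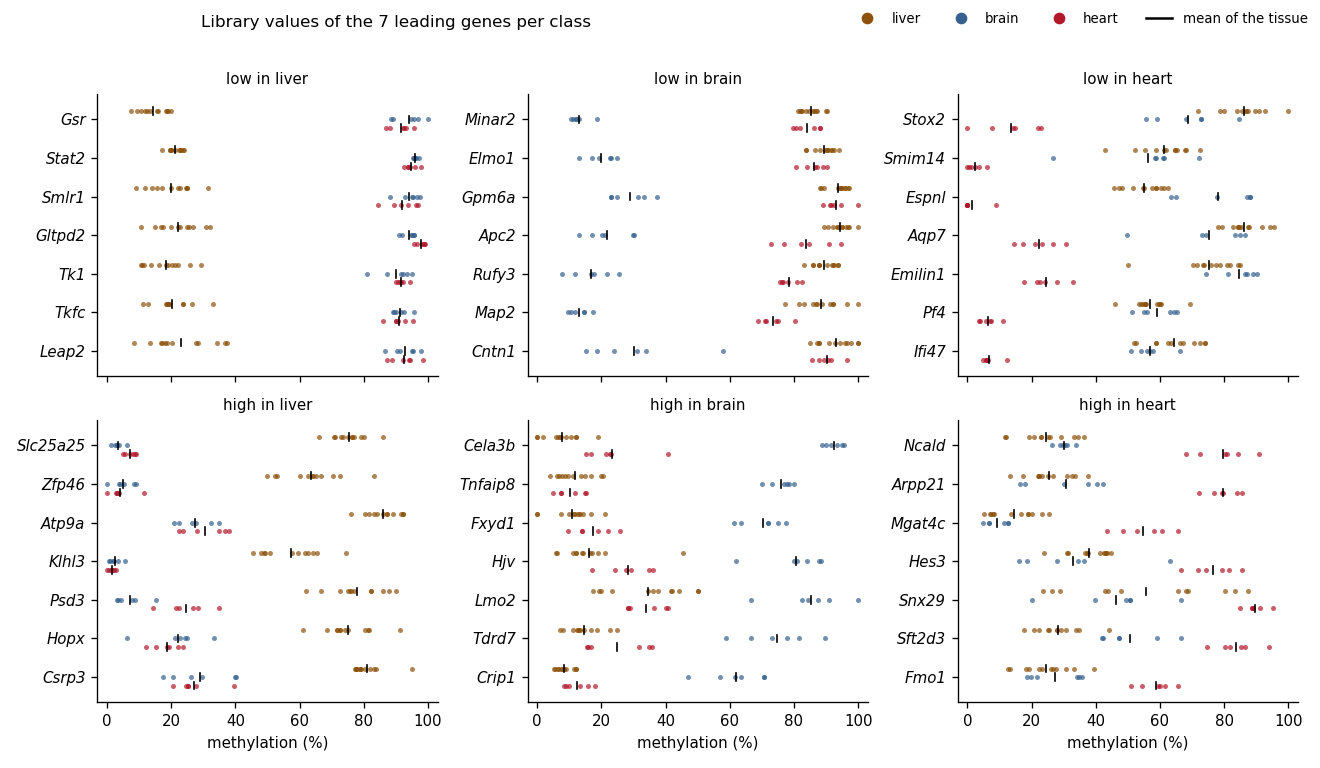
Methylation of each library (horizontal, percent) at the leading tile of the 7 leading genes of each class (vertical), with points for libraries coloured by tissue and a black bar for the tissue mean. In each panel the tissue named in its title stands apart from the other two, except that liver and heart libraries overlap at Snx29.

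Further genes were named for the size of their difference in 1 pair of tissues, whatever the third tissue showed. H6pd, the hexose-6-phosphate dehydrogenase of the endoplasmic reticulum, in intron 1, 286 bp past its start (chr4:150002901-150003000), read 4.8 to 15% in liver (median 10.2%), 86.7 to 95.5% in brain (median 91.1%) and 63.6 to 79.7% in heart (median 70.5%), and liver was lower than brain by 81.2 points (SE 2.49, adjusted p = 2.38e-18). Map4, a microtubule protein, had means of 89.9 ± 3.4% in liver, 10.4 ± 5.93% in brain and 48.6 ± 3.06% in heart, a graded order in which all 3 differences were called, so that the tile was both high in liver and low in brain, as was that of Pde4b. Pde4b, a cAMP phosphodiesterase, had 92.1 ± 2.48% in liver, 15 ± 7.16% in brain and 66.9 ± 7.07% in heart, with brain below liver by 77.2 points (SE 2.91, adjusted p = 4.09e-17). Aoc3, an amine oxidase of smooth muscle and vessels, had 86 ± 14.8% in liver, 57.2 ± 20.9% in brain and 11.9 ± 6.96% in heart, with heart below liver by 74 points (SE 7.13, adjusted p = 2.37e-09), and its liver and brain libraries overlapped. Kng1 and Klkb1, kininogen and prekallikrein of the plasma contact system, stood at 25.2, 87.8 and 95.6% and 24.6, 91.9 and 94.2% in liver, brain and heart, and each was low in liver. Snx3, a sorting nexin, 904 bp upstream of its start (chr10:42501101-42501200), read 24.1 to 48.1% in liver (median 35.9%), 57.6 to 90.3% in brain (median 82.5%) and 9.1 to 24.7% in heart (median 15.2%), with brain above heart by 64.3 points (SE 4.66, adjusted p = 4.98e-11). Gdf2, the vascular ligand BMP9, had 36.4 ± 7.2% in liver, 76.8 ± 5.61% in brain and 14.9 ± 4.54% in heart, and Serinc3 had 75.2 ± 6.37% in liver, 88.7 ± 4.37% in brain and 28.9 ± 3.62% in heart.

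Gene lists of cell types were then read by their counts. The hepatocyte list (secreted and metabolic liver genes) had 91 CpG-poor promoter tiles at 43 of its 149 genes. Their median level was 19.6% in liver (library medians 16.2 to 22.7%), 71.7% in brain (68.7 to 78.2%) and 57.9% in heart (57.5 to 60%). 60 tiles (65.9%) at 33 genes were low in liver, beside 5.72% of all CpG-poor promoter tiles, and 0 were high in liver. Liver was called lower than brain at 74 tiles and higher at 1, and lower than heart at 62 and higher at 0. The low genes included the apolipoproteins Apoa2, Apoa4, Apob and Apoc2, the clotting factors F7, F11, Fgb and Proc, the acute-phase genes Saa1, Saa2 and Hpx, and the enzymes of gluconeogenesis G6pc and Pck1. Sdsl, a serine dehydratase, 126 bp upstream of its start (chr5:120472901-120473000), read 2.2 to 32.5% in liver (median 16%), 73.6 to 97.1% in brain (median 89.3%) and 64.4 to 84.4% in heart (median 75.1%). Hnf4a, the transcription factor of hepatocyte identity, had means of 20.2 ± 5.21% in liver, 90.2 ± 6.36% in brain and 51.3 ± 3.94% in heart. The 3 tissues did not overlap at Hnf4a and heart was intermediate. Proc, protein C, had 28.4 ± 5.54% in liver, 97.3 ± 3.44% in brain and 94 ± 6.55% in heart. 10 tiles of the list (11%) were high in brain, beside 2.99% of all CpG-poor promoter tiles. They were at Arg1, Fbp1 and F10 among others, and at Apoc2, Hnf4a, Nr0b2 and Saa2 a tile high in brain was also low in liver. Without brain library 1, 58 tiles of the list were low in liver and 15 high in brain. The median of liver minus brain over the list was -51.5 points, where that over all CpG-poor promoter tiles was 0.2 points and over all tiles 0.283 points.

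The cardiomyocyte list had 95 tiles at 44 of 113 genes, with medians of 74.6% in liver (library medians 71.4 to 77.4%), 65.5% in brain (58.6 to 68.9%) and 43.8% in heart (41.7 to 45.2%). 25 tiles (26.3%) at 16 genes were low in heart, beside 4.87% of all CpG-poor promoter tiles, and 0 were high in heart. They included the sarcomere genes Myl3, Mybpc3, Ttn and Ldb3, the calcium-store genes Casq2, Hrc and Jph2, and Popdc2, a membrane protein of striated muscle. Dhrs7c, a dehydrogenase of the sarcoplasmic reticulum, 120 bp upstream of its start (chr11:67798101-67798200), read 62 to 89.7% in liver (median 72.3%), 13.6 to 49.7% in brain (median 39.1%) and 4.7 to 9.3% in heart (median 6.45%). Ckm, muscle creatine kinase, 1044 bp upstream of its start (chr7:19410001-19410100), read 63 to 91.8% in liver (median 81.7%), 62.9 to 83% in brain (median 77.8%) and 16.5 to 35.9% in heart (median 25.4%). Xirp1, an actin-binding repeat protein, 152 bp upstream of its start (chr9:120023701-120023800), read 76 to 100% in liver (median 92%), 60 to 94.7% in brain (median 80.5%) and 29.7 to 51.7% in heart (median 35.5%). Heart did not overlap with liver or brain at these 3 tiles. The heart median of the list lay near that of all CpG-poor promoter tiles, while its liver and brain medians lay above theirs. At Dhrs7c brain also lay below liver, and all 3 differences were called. 6 tiles (6.32%, at Cacna1c, Csrp3, Dhrs7c, Lmod3 and Tpm1) were high in liver, beside 3.37% of all CpG-poor promoter tiles, and 5 (5.26%, at Alpk2, Ankrd23, Nppb and Popdc2) were high in brain, beside 2.99%.

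The neuron list lay below the median of all CpG-poor promoter tiles in every tissue. Its 77 tiles at 45 of 143 genes had medians of 37.8% in liver (library medians 34.1 to 40%), 14.8% in brain (13.6 to 20.3%) and 27% in heart (24.1 to 27.6%). 8 tiles (10.4%) at 3 genes (Cntn1, Map2, Rph3a) were low in brain, beside 1.85% of all CpG-poor promoter tiles, and 7 (9.09%) were high in liver, beside 3.37%. Without brain library 1 the brain median of the list was 13.9%, and 9 tiles were low in brain. Rph3a, rabphilin of synaptic vesicles, in the 5′ UTR, 134 bp past its start (chr5:121008301-121008400), read 61.4 to 84.8% in liver (median 74.7%), 5.5 to 42.9% in brain (median 16.8%) and 46.6 to 74.4% in heart (median 56%). Dlg4, the postsynaptic scaffold PSD-95, 84 bp upstream of its start (chr11:70029701-70029800), read 48.4 to 72% in liver (median 60.2%), 3.8 to 12% in brain (median 7.9%) and 12.2 to 39.3% in heart (median 26.7%). The heart mean lay between those of brain and liver at both. Rph3a was low in brain, whereas Dlg4 was called only between liver and the others. The glia list had 34 tiles at 15 genes and medians of 14.1% in liver (library medians 7.65 to 21.7%), 30.3% in brain (26.3 to 35%) and 25.5% in heart (21.1 to 27%). 0 of its 34 tiles were low in brain, beside 1.85% of all CpG-poor promoter tiles. Within a tile the glia list did not follow the order of these medians. The median of liver minus brain over its tiles was 1.44 points, opposite in sign to the difference of the medians. Liver was called higher than brain at 5 of these tiles and lower at 2, and 27 were not called. Aqp4, the astrocyte water channel, had means of 80.5 ± 10.7% in liver, 39.2 ± 9.06% in brain and 47 ± 15% in heart, with brain and heart not called apart, and Mag, the myelin-associated glycoprotein, had 88.9 ± 2.66% in liver, 55.8 ± 10.2% in brain and 71.4 ± 5.72% in heart. Aldh1l1, a folate enzyme of astrocytes that hepatocytes also make, was lowest in liver, at 3.83 ± 1.88% in liver, 40.7 ± 11.5% in brain and 24.4 ± 1.83% in heart. The hepatocyte and glia lists share the 3 genes Agt, Aldh1l1 and Trf.

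The blood and immune list had 112 tiles at 55 genes, with medians of 78.3% in liver (library medians 75.3 to 80.8%), 78.6% in brain (75.2 to 80.2%) and 65.3% in heart (64 to 66.5%). 15 tiles (13.4%) at 10 genes were low in heart, beside 4.87% of all CpG-poor promoter tiles, and 18 without brain library 1. The median in heart was also below those of liver and brain for all CpG-poor promoter tiles and for the epidermis, chemosensory and testis lists. The blood and immune tiles low in heart included those of the platelet genes Itga2b and Pf4, the lymphocyte genes Cd79b, Itgal, Itgb7 and Zap70, and Cd180, Spi1 and Tyrobp of myeloid cells and B cells. Itga2b, the platelet integrin subunit, in the coding part of exon 1, 132 bp past its start (chr11:102469701-102469800), read 33.3 to 76.9% in liver (median 58.1%), 50.3 to 75.7% in brain (median 68.9%) and 11 to 18.6% in heart (median 15.1%). Cd180, a toll-like receptor relative, had means of 55.3 ± 10.7% in liver, 21.3 ± 5.47% in brain and 5.57 ± 3.62% in heart at a tile that was high in liver, another of its tiles being the one low in heart. Cd79b, a chain of the B cell receptor, had 87.3 ± 7.45% in liver, 76.8 ± 8.2% in brain and 39.8 ± 7.51% in heart. The share of blood cells in each tissue was not measured, and their part in these levels was not tested.

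**Figure D5:**
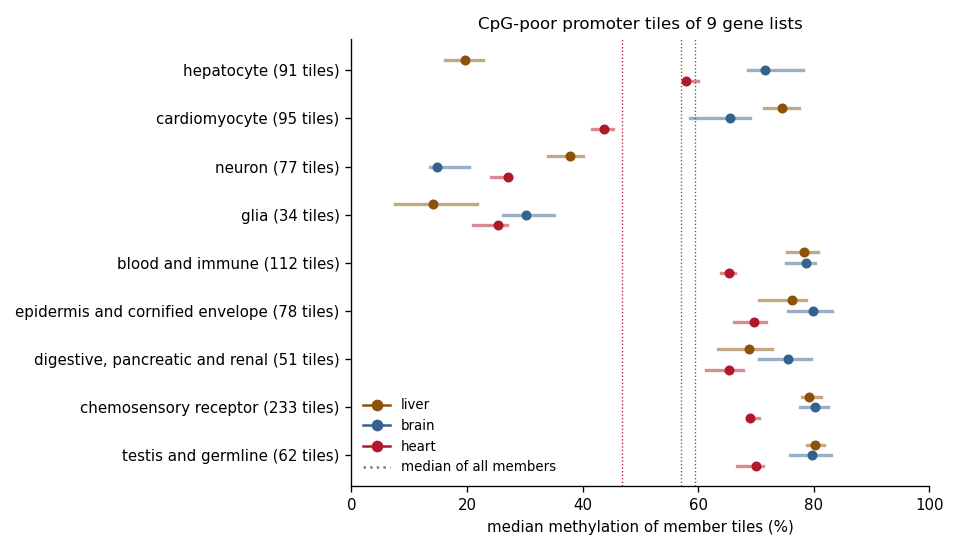
Median methylation of the CpG-poor promoter tiles of 9 gene lists (vertical, with their tile number) in each tissue (horizontal, percent), with points for the median of tissue means, bars for the range of library medians and dotted lines for the median of all CpG-poor promoter tiles. The hepatocyte list is far lower in liver, the cardiomyocyte list is lowest in heart, and the neuron list is lowest in brain but low in all 3 tissues.

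Lists of cell types outside these tissues had high medians. The epidermis list (78 tiles at 36 genes) had medians of 76.2% in liver, 79.95% in brain and 69.6% in heart, the digestive, pancreatic and renal list (51 tiles at 28 genes) 68.8% in liver, 75.6% in brain and 65.3% in heart, the chemosensory list (233 tiles at 141 genes, mostly olfactory and vomeronasal receptors) 79.1% in liver, 80.3% in brain and 69% in heart, and the testis and germline list (62 tiles at 34 genes) 80.3% in liver, 79.6% in brain and 70.02% in heart. The chemosensory list had 2 (0.858%) of its tiles low in liver, both at Sag, 3 (1.29%) high in brain and 2 (0.858%) low in heart. Each was under the share of all CpG-poor promoter tiles given above. The epidermis list had 2 (2.56%) low in liver, also under that share (5.72%). The digestive list had 4 (7.84%) high in brain and 4 (7.84%) low in liver, beside 2.99 and 5.72% of all CpG-poor promoter tiles. These counts overlap, since at Fabp2 and at Pnliprp2 a tile was in both classes. The testis list had 8 (12.9%) low in heart, beside 4.87%. Fabp2, a fatty acid binding protein of the gut, in the 5′ UTR, 178 bp past its start (chr3:122895201-122895300), read 14 to 26.4% in liver (median 18.9%), 89.5 to 100% in brain (median 95.2%) and 57.1 to 80.6% in heart (median 66.5%). Krt23, an epithelial keratin, had means of 21.1 ± 5.72% in liver, 86.5 ± 4.25% in brain and 70.8 ± 5.85% in heart. Sag, the visual arrestin, had 21.6 ± 3.58% in liver, 84 ± 7.66% in brain and 69.1 ± 3.85% in heart, and Catsper3, a sperm calcium channel subunit, 36.1 ± 7.14% in liver, 93.3 ± 1.84% in brain and 87.8 ± 2.26% in heart. All 4 were lowest in liver, and at Fabp2 all 3 differences were called. Olfr368, an olfactory receptor, had 16.2 ± 3.09% in liver, 63 ± 4.37% in brain and 25.2 ± 3.55% in heart and Olfr157 38.9 ± 10.01% in liver, 74.1 ± 8.41% in brain and 31.4 ± 7.11% in heart, both high in brain, whereas Olfr1396, with 61.1 ± 13.5% in liver, 57.1 ± 8.82% in brain and 15.9 ± 5.58% in heart, was low in heart. Dppa4 and Nobox, genes of early embryos and oocytes, had 73.3, 79.1 and 38.4% and 71.7, 59.5 and 33.9% in liver, brain and heart, and Wfdc15a 66.6, 57.9 and 25.5%. The remaining genes named from these lists had means in the same order of 62.4, 77.2 and 37.9% for Krt24, 62.7, 35 and 19.97% for Krt80, 38, 73.6 and 64% for Tgm1, 10.2, 62.6 and 36.7% for Pnliprp2 and 61.6, 35.8 and 19.9% for Trpv6. Leaving out 1 library took a difference under the limit of 25 points at Pde4b (liver-heart, 23.5 to 24.97 points), Aoc3 (liver-brain, 22.8 points), Krt80 (liver-brain, 24.8 points), Tgm1 (liver-heart, 24.6 points), Pnliprp2 (liver-heart, 24.8 points), Pnliprp2 (brain-heart, 22 to 24.9 points), Trpv6 (liver-brain, 23.4 to 24.9 points) and Nobox (brain-heart, 24.4 to 24.8 points).

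Genes with several tiles showed how far the level extends. 1867 genes had 1 CpG-poor promoter tile, 1334 had 2, and 1 gene, Rhoj, a small GTPase of endothelial cells, had 10. Asb4, Ndst1 and Rras had 9 each, and the naming rule took Rhoj, Asb4 and Ndst1. At Rhoj the 4 tiles from 962 to 662 bp upstream had liver means of 69.2 to 94.8%, and the 6 tiles from 262 bp upstream to 338 bp downstream had 1.62 to 3.42%. The boundary lay at the same place in brain and heart, and no Rhoj tile was called. Asb4, an imprinted ubiquitin ligase adaptor, had 9 tiles at 2 starts. At its upstream start the tile 36 bp from the start averaged 26.8% in liver, 41.9% in brain and 55.6% in heart, while the tile 40 bp past the other start averaged 3.93, 31.4 and 2.57%. Across 2102 pairs of tiles that touch each other, the median absolute difference of the tissue means was 7.32 points in liver, 7.87 in brain and 8.93 in heart. In 92 of the 170 touching pairs with a tile low in liver both tiles were, and 0 of the 2102 pairs held opposite classes of 1 tissue.

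Some genes differed along the whole promoter and others by start. A1cf, Fgb and Cryab here, and the further tiles of Ifi47, Arpp21 and Cntn1, were chosen for description after their values were seen. A1cf, a cofactor of apolipoprotein B mRNA editing, had 7 tiles from 362 bp upstream to 238 bp downstream of its start, and all 7 were low in liver. Their means were 22.8 to 28.3% in liver, 84.7 to 95.6% in brain and 78.5 to 94% in heart. Fgb, the fibrinogen beta chain, had 5 tiles, all low in liver, at 15.2 to 27.8% in liver and 70.3 to 96.5% in brain. The 5 tiles of Cryab, the small heat shock protein of lens and muscle, were all high in liver, at 65.2 to 82.1%, against 21.3 to 52.1% in heart. At these 3 genes every tile measured was in the same class. Ifi47 had tiles at 2 starts. The 2 tiles at one start were low in heart (heart means 6.88 and 26.9%, liver 64.4 and 66.2%), and the 3 tiles at the other start were low in liver (liver means 2.41 to 7.83%, heart 52 to 71.7%). Brain was methylated at both starts, at 57 to 79.95%. At Arpp21, 3 tiles at the more distal starts were low in brain (brain means 34.8 to 48.9%, liver 69.4 to 89.1%), and 3 tiles at the starts further down the gene were high in heart (heart means 59.7 to 83.1%). Ndst1, a heparan sulfate enzyme, had 9 tiles at 3 starts, of which 3 were low in liver, 2 high in liver and 1 high in brain. Counting tiles that held 2 classes under both, 128 genes had tiles in more than 1 class.

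RefSeq promoter sequences (mm10, 250 bases before to 50 after the start) were found for 3288 of the 4289 starts with a CpG-poor promoter tile and searched on both strands for short letter strings. The TATA box letters TATAAA were in 12.6% of them, against 13.6% of the 32851 promoters in the table, and the CCAAT box letters CCAAT in 38% against 37.4%. GTTAAT, part of the consensus of the liver factor HNF1, was in 15.2% of the 230 promoters with a tile low in liver, against 7.06% of those with any CpG-poor promoter tile. It was in 4.11% of the promoters with a tile low in heart and 10% of those with a tile low in brain. The forkhead letters GTAAACA were in 5.22% of promoters with a tile low in liver and 5.88% of those with a tile high in brain, against 2.92% with any CpG-poor promoter tile and 3.65% of all promoters. The HNF4 letters CAAAGTCCA and the MEF2 letters TAAAAATAG were in under 1% of promoters with a CpG-poor promoter tile (0.456 and 0.365%), and the E-box CACGTG was in 6.93%. CCGG, the site that RRBS cuts, was in 62.5% of them against 52.8% of all promoters. No string contains another. These are descriptions of sequence, and binding was not measured.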

How the data were processed

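RRBS libraries were made and mapped to mm10 by a service company. Bismark and methylKit appear in the submitters' processing notes, and the study's methods give methylKit v0.99.2 for 100 bp tiles, kept at more than 10× coverage in all libraries of a comparison and below a top percentile of coverage. The authors deposited 1 table per tissue, whose values are the methylated fraction of each tile in each library. The deposited fractions carry no read counts, so the depth of a value is unknown beyond that minimum, and no interval for counting error was given. They were multiplied by 100 and printed as percent.

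The 819713 liver, 942643 brain and 930358 heart tiles were joined on position, which covered the autosomes. CpGs and soft-masked bases were counted in GRCm38.p6, and starts were the 24860 curated protein-coding transcript starts of RefSeq. Tissues were compared with limma 3.58.1 (R 4.3.3) on the percent values of all shared tiles, 24 libraries in 1 model with tissue as the term, an eBayes variance trend and Benjamini-Hochberg adjustment per comparison, after the script was tested on simulated data. The limits of 25 points and 0.01 follow the study. Single values per library were compared with exact permutation tests in scipy 1.17.1. No libraries were alike beyond 3.3% of equal values, and Pearson's r between libraries of a tissue over the CpG-poor promoter tiles was 0.932 to 0.974.

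A tile was low (or high) in a tissue when it was called lower (or higher) there than in each of the others. Genes were named by rule: per tissue and direction the 7 genes with the largest smaller difference, per pair of tissues 3 more with the largest difference, per list the 4 with the widest range of tissue means, 6 that were lowest in all tissues and 3 with the most tiles. A few of the genes so chosen or listed are not reported here. Sequences were shown for 2 tiles per tissue and direction, passing over tiles on an untranslated region and on 1 chromosome. The rule for the tiles uses no methylation value, but the tiles, the gene lists and the tests were chosen with earlier results of these data known. Libraries of the same mice were treated as independent, so p-values measure the spread between libraries.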

Additional observations from a re-analysis of the deposited data

Results flagged for a closer look

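In 16 of 184 groups of 6 libraries examined, 1 library stood apart from the other 5 by Dixon's test at its 95% limit. All 16 were at named tiles, though the groups examined were not all named tiles. Chance marks about 1 in 20 groups. Of the 9 cases in brain, 8 were brain library 1, which also had the lowest medians of its tissue. It read lower than the rest with 62% at Hjv (the others 80 to 88.4%), 26.7% at Smim14 (the others 58.6 to 72.3%), 49.7% at Aqp7 (the others 73.1 to 86.4%), 57.6% at Snx3 (the others 80.7 to 90.3%), 77.4% at Hnf4a (the others 90.9 to 94.6%) and 11.1% at Cd180 (the others 21.3 to 26.9%), and higher with 18.8% at Minar2 (the others 10.4 to 13%) and 22.3% at Map4 (the others 6.5 to 9.4%). Brain library 6 read higher with 0.7% at Stxbp5 (the others 0%). In heart the cases fell on 5 different libraries. Heart library 1 read higher with 11.4% at Zfp46 (the others 0 to 3.9%) and 8.8% at Espnl (the others 0%), heart library 2 with 51.7% at Xirp1 (the others 29.7 to 37%), heart library 4 with 40.7% at Cela3b (the others 15.1 to 23%) and heart library 5 with 12.4% at Ifi47 (the others 4.8 to 6.4%). Heart library 3 read lower with 25.4% at Cd79b (the others 38.9 to 46.9%) and higher with 26.7% at Olfr1396 (the others 11.4 to 16.5%). At Espnl and Stxbp5 the other 5 libraries were all at 0%. No call of these tiles in the report was lost without the library concerned, and which mouse it came from cannot be told from the columns.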

How the results depend on the processing

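No paired analysis was possible because the columns carry no mouse number. Against 1271, 1367 and 972 tiles called for liver with brain, liver with heart and brain with heart, a least difference of 10 points gave 2676, 3023 and 2524, and one of 35 points 789, 770 and 392. A promoter window of 500 bp upstream to 200 bp downstream, with fewer tiles, gave 670, 725 and 529 calls, classes of 221 low in liver, 143 high in liver, 72 low in brain, 127 high in brain, 206 low in heart, 14 high in heart, and medians of 48.5, 53.2 and 38.8% in liver, brain and heart. Adding starts of predicted RefSeq transcripts, an alternative chosen after the data were seen, raised the tiles to 11709, with 2088, 2221 and 1600 calls, classes of 644 low in liver, 444 high in liver, 243 low in brain, 356 high in brain, 623 low in heart, 39 high in heart, and medians of 66.1, 65.5 and 54.3%, liver then lying above brain. The medians in the same order were 63, 65 and 51.2% for tiles with 1 CpG, 43.8, 48.5 and 36.6% with 3 CpGs, 52.2, 56.4 and 44.3% with 1 tile per gene, and 63.6, 64.6 and 52.4% when dense neighbours were sought in the whole mm10 sequence. A limit of 10% in place of 25% gave 19.6, 18 and 21.5% low tiles. Logit values, no variance trend and CpGs split over tile edges moved no count of calls by more than 1.5 times. Leaving out 1 library at a time gave 1261 to 1299, 1362 to 1388 and 941 to 1050 calls, 423 to 437 tiles low in liver and 19 to 25 high in heart, and medians of liver minus brain of -3.21 to -1.82 points. Among the named tiles it took a difference under the limit of 25 points at Pde4b (liver-heart, 23.5 to 24.97 points), Aoc3 (liver-brain, 22.8 points), Krt80 (liver-brain, 24.8 points), Tgm1 (liver-heart, 24.6 points), Pnliprp2 (liver-heart, 24.8 points), Pnliprp2 (brain-heart, 22 to 24.9 points), Trpv6 (liver-brain, 23.4 to 24.9 points) and Nobox (brain-heart, 24.4 to 24.8 points). The libraries concerned, by column, were liver 7, 11, brain 1, 2, 3, 5, 6, heart 1, 2, 3, 6. Pnliprp2 also lost its brain-heart call on logit values. Beyond the change of tiles or limits that an alternative makes, the cause was not tested. The fractions carry no depth, so counting error cannot be separated from the spread between libraries.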
